A study of Mus musculus with 2 samples.

Results

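Keratin genes were taken as all genes of the deposited expression tables whose symbol is Krt followed by a digit, which left out the keratin-associated proteins (Krtap genes). The rule found 52 of the 24346 genes, 28 of type I and 24 of type II. The data are bulk mRNA-Seq of dorsal skin wounds of 1-day-old C57BL/6J pups, harvested 24 h after a full-thickness injury, with 1 library from WT pups and 1 library from their PU.1-/- littermates, labelled PU.1_KO. The methods give the wound as a 1-cm incision and the series text as an excision. PU.1, encoded by Spi1, is the transcription factor that macrophages and neutrophils need to form, and the pups carried the null allele in every cell, so that nothing in the model was limited to the skin or to 1 cell type. How many pups gave each library, and of which sex, was not stated in the labels or the methods. The question that the comparison addresses here is how keratin transcripts stood in a wound with and without these leukocytes.

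Keratins are the intermediate filament proteins of epithelia. A filament is built from pairs of 1 type I (acidic) and 1 type II (basic) chain, so each epithelium makes partners: Krt14 with Krt5 in the dividing basal layer of epidermis, Krt10 with Krt1 in the differentiating layers above it, and Krt18 with Krt8 in simple epithelia. Krt6a, Krt6b, Krt16 and Krt17 are made in the hair follicle and are induced in the epidermis at a wound edge, where keratinocytes leave the normal programme and migrate. The hair follicle adds keratins of its own, in the inner root sheath that moulds the growing hair, in the companion layer around it and in the hard shaft itself.

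The values are FPKM, fragments per kilobase of transcript scaled to the depth of the library, so levels can be set side by side between genes. With 1 library per genotype there is no replicate check, no test across animals and no p-value. A ratio is PU.1-/- over WT with values below 0.1 FPKM raised to 0.1, and "2-fold higher" or "lower" means that this ratio was at least 2 either way. Read numbers behind the values were estimated from FPKM, transcript length and the value of 1 read, which was taken from the lowest FPKM steps. That value corresponds to about 13800000 reads for WT and 15800000 for PU.1-/-, which are estimates and not stated depths. Each interval of a single gene below is an exact binomial (Clopper-Pearson) 95% interval of the ratio. The interval of a sum is a normal approximation at the same level, and both cover counting error only. The spread between animals is not in these intervals.

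Spi1 itself stood at 35.4 FPKM in the WT and 1.45 FPKM in PU.1-/-. All 10 macrophage markers were 2-fold lower, from 783 to 5.74 FPKM in sum, and so were 8 of 9 neutrophil markers. Xist was listed at 0 in the WT and at 9.48 FPKM in PU.1-/-, while Ddx3y, Eif2s3y, Kdm5d and Uty were at 2.16 to 38.5 FPKM in the WT and listed at 0 in the PU.1-/- library, so sex and genotype cannot be told apart. The labelled tissue was borne out by its epithelium: the 16 epithelial markers other than keratins were all above 1 FPKM in both libraries, none was 2-fold different, and their median log2 ratio was 0.13. Skeletal muscle markers were higher in the PU.1-/- library (10 of 10, 9570 against 16005 FPKM in sum), fibroblast markers slightly so (10 of 10, median log2 ratio 0.26), and all 8 adipocyte markers were lower, 4 of them 2-fold. The part of these shifts in the keratin values was not tested, and in bulk tissue fewer cells of a type and less RNA per cell cannot be told apart.

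The keratins differed by the group to which they were assigned. Of the 19 keratins of at least 1 FPKM outside the hair follicle groups, 14 were higher in the PU.1-/- wound and 5 were lower (Krt7, Krt17, Krt18, Krt77 and Krt79), with a median log2 ratio of 0.16, whereas 21 of the 22 hair follicle keratins of at least 1 FPKM were lower, with a median over the 22 of 70.1% of the WT value. The groups are not exclusive sites, since Krt6a, Krt6b, Krt15, Krt16, Krt17, Krt19 and Krt79 are also made in the follicle and were counted among the 19. Krt17 and Krt79 are among the 5 that were lower. Across all 52 keratins, 49 reached 0.1 FPKM in 1 or both libraries, and their median log2 ratio was -0.25, beside -0.01 over all detected genes. Only 1 keratin was 2-fold higher, Krt19, where 2.32% of all genes were, and 3 were 2-fold lower, Krt13, Krt36 and Krt222, where 4.34% of all genes were. Among the 41 keratins of at least 1 FPKM, 2 were 1.5-fold higher (background 5.45%) and 8 were 1.5-fold lower (background 8.17%). The ratio was below 1 in 26 of these 41 (background 50.7%). The counting interval lay below 1 in 20 and above 1 in 11, against 24.1% and 24.3% of all genes with an interval.

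Because the most abundant keratins were the higher ones, the sum over the family went the other way from the median. Keratins made up 19130 FPKM in the WT and 21261 FPKM in PU.1-/-, which is 2.70% and 3.09% of all FPKM. Type I and type II chains kept nearly the same balance, with a type I to type II ratio of 1.67 in the WT and 1.68 in the PU.1-/- library. In both libraries 7 keratins exceeded 1000 FPKM.

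**Figure D1:**
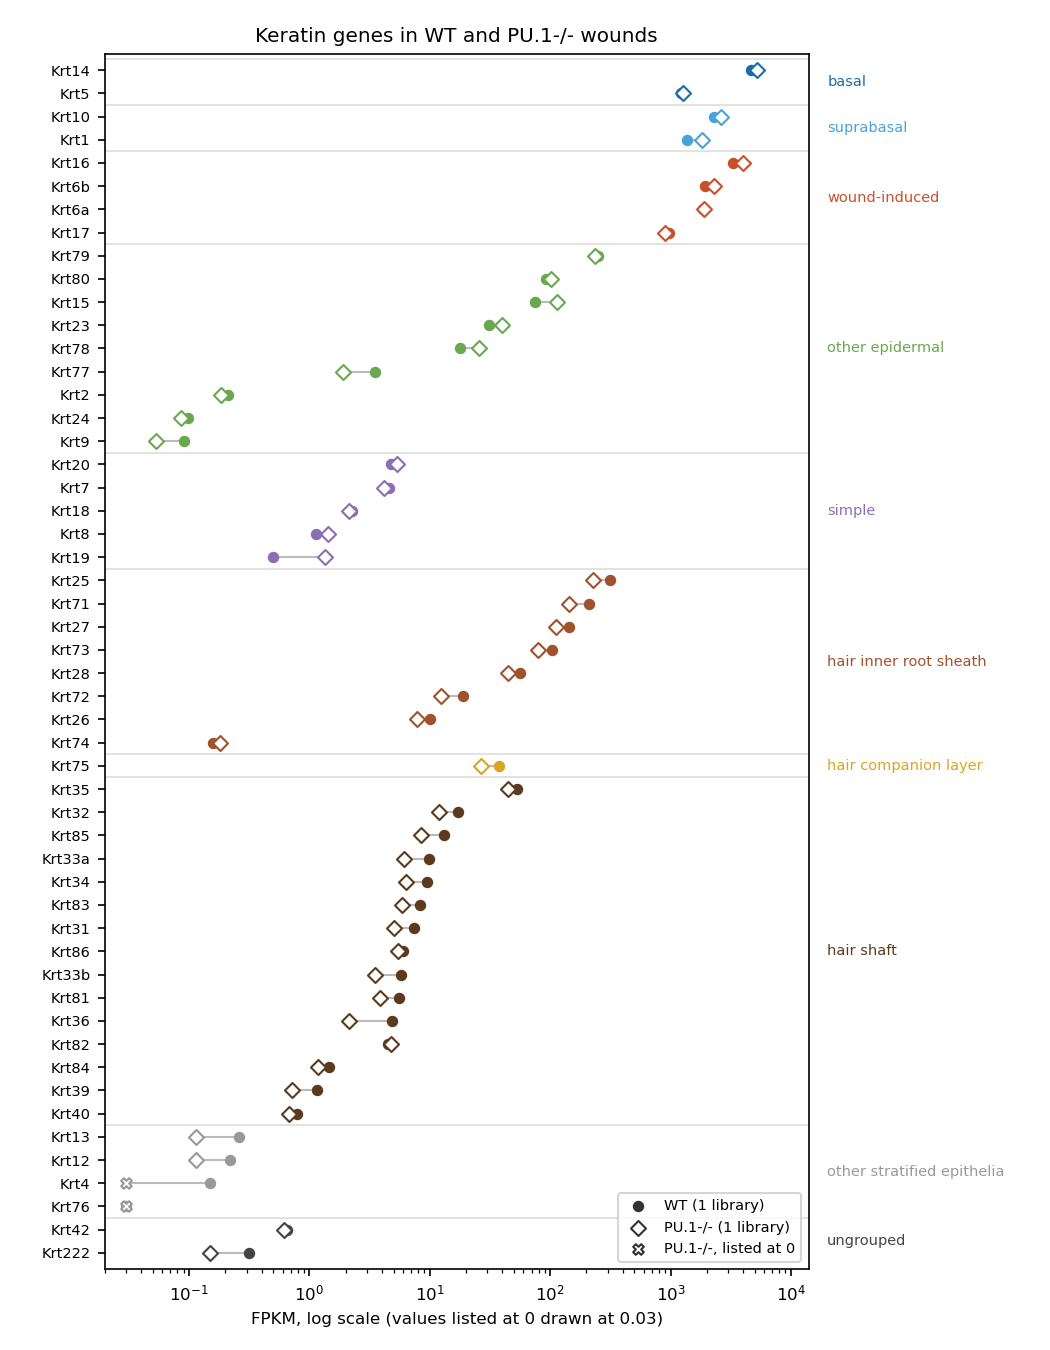
FPKM of each of the 52 keratins on a log axis, with WT as a filled circle and PU.1-/- as an open diamond, 1 library each, ordered by group and by the WT level. In the hair groups nearly every diamond lies to the left of its circle, while for Krt1, Krt10, Krt14, Krt16 and Krt6b it lies to the right; Krt76 was listed at 0 in both libraries and Krt4 in the PU.1-/- library.

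The sequences in front of the genes are shown for keratins outside the hair follicle groups (Krt5 and Krt79) and within them (Krt25, Krt71 and Krt31). They are the 120 bases before the start of transcription (RefSeq, GRCm38.p6, minus strand for all 5). Krt5 was slightly higher in the PU.1-/- wound and Krt79 slightly lower, so these examples do not separate by direction. Krt5 is the basal type II keratin and Krt79 is a keratin of the follicle mouth and sebaceous duct. Krt25 and Krt71 are the most abundant type I and type II keratins of the inner root sheath, and Krt31 is a type I keratin of the hair shaft. Capitals mark the letters TATAAA, the core of the TATA box that positions the transcription machinery in many strongly regulated genes. Only exact matches are marked, so the near match gataaaag in Krt5 is not, and no capitals does not mean no TATA box. Krt10, a keratin outside the hair follicle groups that has the exact letters, is not printed.
Krt5, chr15:101712906-101713025: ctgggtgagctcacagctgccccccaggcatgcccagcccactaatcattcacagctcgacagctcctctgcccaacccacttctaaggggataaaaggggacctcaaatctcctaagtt
Krt79, chr15:101940325-101940444: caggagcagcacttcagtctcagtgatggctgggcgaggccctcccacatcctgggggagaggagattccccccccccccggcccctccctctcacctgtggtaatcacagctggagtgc
Krt25, chr11:99322952-99323071: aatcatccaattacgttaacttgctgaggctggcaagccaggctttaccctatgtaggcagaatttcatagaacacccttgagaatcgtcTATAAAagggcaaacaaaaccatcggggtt
Krt71, chr15:101743098-101743217: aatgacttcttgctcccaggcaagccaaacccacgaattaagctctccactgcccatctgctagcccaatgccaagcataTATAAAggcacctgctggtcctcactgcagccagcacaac
Krt31, chr11:100050552-100050671: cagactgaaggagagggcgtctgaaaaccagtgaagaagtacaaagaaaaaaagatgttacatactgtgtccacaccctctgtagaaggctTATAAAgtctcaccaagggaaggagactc

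The motif began 30 bases before the start in Krt25, 40 in Krt71 and 29 in Krt31. Of the 35 keratins with a promoter entry, TATAAA occurred on either strand within 250 bases before the start in 13 of 17 hair follicle keratins (76.5%) and in 4 of 18 other keratins (22.2%), beside 13.0% of 27025 promoters in all. On the strand of the gene and 20 to 50 bases before the start, it was found in 14 of the 35 keratins and in 2.56% of all promoters. Of these 14, 10 were among the 17 hair follicle keratins and 4 among the 18 other keratins. The 4 other keratins with a match were Krt10, Krt12, Krt20 and Krt76, and each of them also had it in this narrower window. Krt10 and Krt20 had ratios above 1, Krt20 with an interval that included 1. Krt12 and Krt76 were below 1 FPKM in both libraries. Of the other 4 motifs searched on both strands, CTTTGA (the LEF/TCF core) was present in 6 of 17 hair follicle keratins, 14.05% of all promoters and 2 of the 18 other keratins. TGANTCA (AP-1), GCCNNNGGC (AP-2) and CCCACCC (KLF) were present in none of the 17, in 1, 4 and 5 of the 18 other keratins, and in 6.87%, 13.6% and 15.5% of all promoters. These counts describe letters in a window, the keratins are related by duplication and so are not independent, and the start used was an inner one rather than the outer end of the gene in 7 of the 35.

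Basal keratins were the most abundant pair. Krt14 stood at 4659 FPKM in the WT and 5195 FPKM in PU.1-/- (ratio 1.12, counting interval 1.11 to 1.12). Its partner Krt5 stood at 1216 and 1273 FPKM, a ratio of 1.05 (1.03 to 1.06). Both were slightly higher without PU.1, Krt14 by 0.16 and Krt5 by 0.07 on the log2 scale, close to the median shift of the other epithelial markers, and relative to that median the summed basal log2 ratio was 0.01. Relative to the ratio of sums of the same markers, an alternative chosen after seeing the data, it was 0.13. The Krt14 to Krt5 ratio within a library was 3.83 in the WT and 4.08 in the PU.1-/- library. Krt15, another basal keratin that also marks the stem cells of the follicle bulge, showed a larger difference, 74.9 FPKM in the WT and 114 FPKM in PU.1-/- (log2 ratio 0.61, 0.52 to 0.70).

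Suprabasal keratins were higher by more than the basal pair. Krt1, the type II keratin of the differentiating layers, stood at 1378 FPKM in the WT and 1820 FPKM in PU.1-/-, a log2 ratio of 0.40 (0.38 to 0.42). Krt10, its type I partner, stood at 2291 and 2602 FPKM, a log2 ratio of 0.18 (0.17 to 0.20). The intervals of the partners did not overlap, and the Krt10 to Krt1 ratio was 1.66 in the WT and 1.43 in the PU.1-/- library. The sum of suprabasal over basal keratins was 0.624 in the WT and 0.684 in the PU.1-/- library.

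The wound-induced keratins were strongly expressed in both libraries and did not move as a block. Krt16 stood at 3297 FPKM in the WT and 3978 FPKM in PU.1-/- (log2 ratio 0.27), and Krt6b at 1921 and 2304 FPKM (log2 ratio 0.26). Krt6a was nearly level, at 1866 and 1888 FPKM, and its counting interval included 1. Krt17, which can pair with the Krt6 chains and is also a follicle keratin, was the 1 member that was lower, at 973 and 901 FPKM (log2 ratio -0.11, -0.14 to -0.08). In sum the 4 genes stood at 8057 FPKM in the WT and 9071 FPKM in PU.1-/-, a log2 ratio of 0.17. It was 0.04 relative to the median of the other epithelial markers and 0.16 relative to their ratio of sums. On the scale of the median the ratios of Krt6a and Krt5 were below 1, as that of Krt17 was on both scales.

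Krt6a and Krt6b cannot be read as separate measurements. Their coding sequences are 97.8% identical, and 36.2% of all stretches of 75 bases, the length of 1 read, in the Krt6a transcript also occur in Krt6b. The first such stretch of the coding sequence, in exon 1, begins at coding base 34 in both genes and lies at chr15:101694141-101694215 in Krt6a and chr15:101680116-101680190 in Krt6b (GRCm38, minus strand). It is shown because a read from it fits both genes.
Krt6a and Krt6b: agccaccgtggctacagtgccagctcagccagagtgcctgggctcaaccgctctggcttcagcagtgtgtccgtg
The sum of both genes was 3787 FPKM in the WT and 4192 FPKM in PU.1-/- (log2 ratio 0.15). It does not depend on how such reads were divided between them, but would change if these reads were dropped or counted for both. In all, 42.3% of the Krt6a stretches occur in other transcripts, so the sum can also depend on genes outside the pair. Krt16 shares 28.9% of its stretches with other transcripts, most of them with Gm11597, and is uncertain for the same reason. Krt17, Krt1 and Krt10 share none, and Krt14 shares 5.91% of its stretches, all of them with Krt16.

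**Figure D2:**
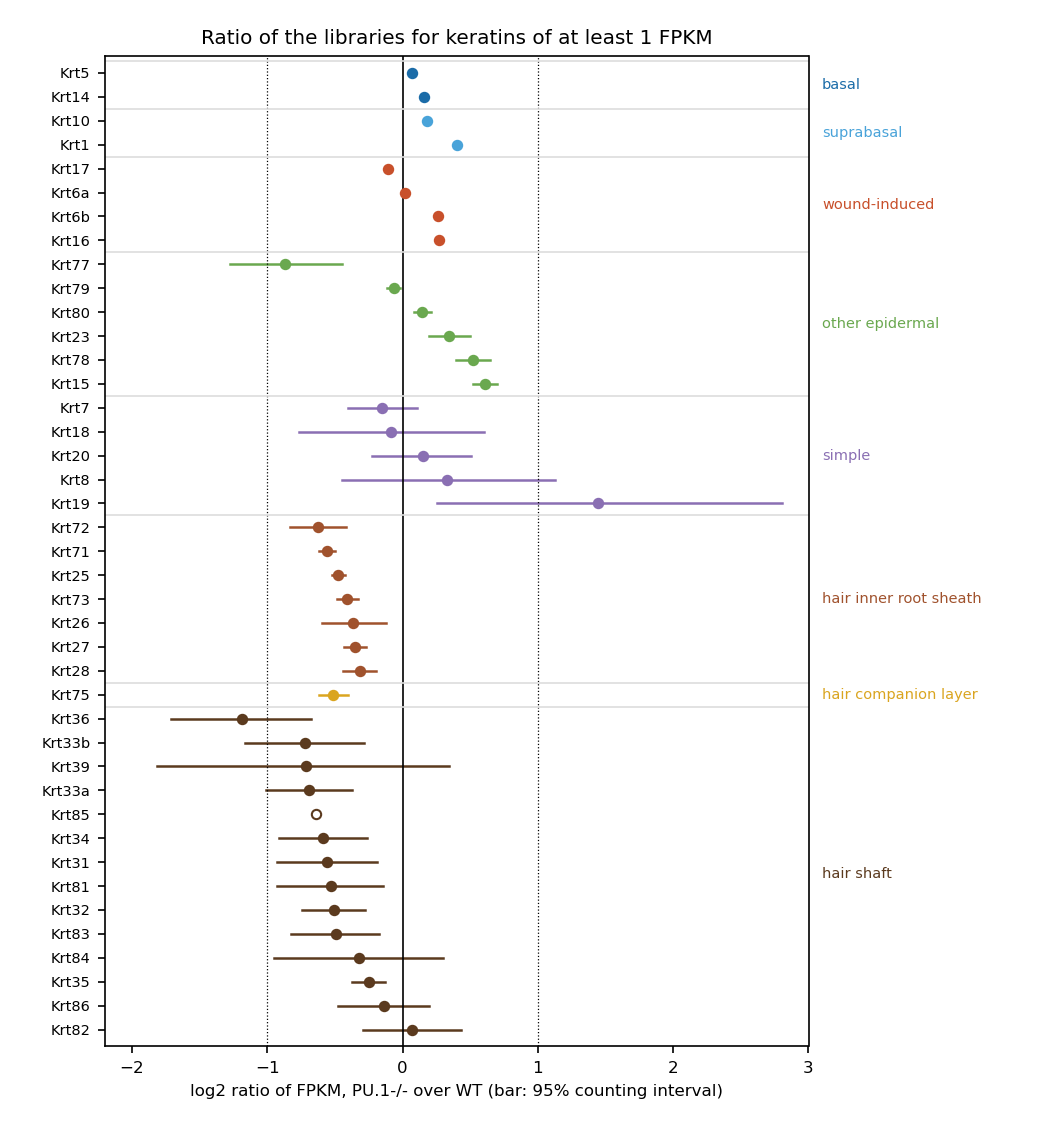
Log2 ratio of FPKM, PU.1-/- over WT, for the 41 keratins of at least 1 FPKM in 1 or both libraries, grouped by site, with bars for the 95% counting interval (none for Krt85) and dotted lines at 2-fold. The hair follicle keratins lie to the left of 0 except Krt82, and Krt19 and Krt36 are the members beyond 2-fold.

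Among the other epidermal keratins of at least 1 FPKM, 4 were higher and 2 were lower. Krt78, a type II keratin of stratified epithelia, stood at 17.9 FPKM in the WT and 25.7 FPKM in PU.1-/- (log2 ratio 0.52, 0.39 to 0.65). Krt23 stood at 31.1 and 39.5 FPKM and Krt80 at 91.9 and 102 FPKM, both with intervals above 1. Krt79 stood at 248 and 237 FPKM, a ratio of 0.955 whose interval lay below 1 (0.923 to 0.988). Krt77, a type II keratin of sweat ducts and epidermis, was the member with the largest deficit in this group, at 3.49 FPKM in the WT and 1.91 FPKM in PU.1-/- (log2 ratio -0.87, -1.27 to -0.45), on about 131 and 83 reads. Krt2, Krt9 and Krt24 were below 0.25 FPKM in both libraries, Krt2 on 7 reads in each, so that a difference in them was not detectable at this depth.

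Simple epithelial keratins were present at a few FPKM or less. Krt19, which is made in parts of the follicle and in glands, stood at 0.496 FPKM in the WT and 1.35 FPKM in PU.1-/- (ratio 2.72, counting interval 1.19 to 6.98). This single 2-fold higher call among the keratins rested on 8 and 25 reads. Krt20, a keratin of Merkel cells and gut, stood at 4.78 and 5.29 FPKM, and Krt7 at 4.61 and 4.15 FPKM. Krt8 stood at 1.13 and 1.42 FPKM and Krt18 at 2.24 and 2.11 FPKM. The intervals of Krt7, Krt8, Krt18 and Krt20 all included 1, and Krt8 shares 22.0% of its stretches with Krt8-ps. Of 10 Merkel cell markers 8 were detected, 6 with a ratio above 1 and 2 below, with a median log2 ratio of 0.38. Counting intervals lay above 1 in 3 of the 10 and below 1 in 1. Only 3 of the 10 reached 1 FPKM, 2 higher and 1 lower. The lower one, named after its value was seen, was Tubb3, a tubulin that neurons also make, at 19.6 and 9.38 FPKM.

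The inner root sheath keratins were lower in the PU.1-/- wound in every one of the 7 members of at least 1 FPKM. Krt25 stood at 316 FPKM in the WT and 227 FPKM in PU.1-/- (log2 ratio -0.48, -0.52 to -0.43), and Krt71 at 211 and 144 FPKM (-0.56, -0.61 to -0.50). Krt27 stood at 144 and 112 FPKM, and Krt73 at 104 and 78.6 FPKM. These 4 genes carried most of the group, whose sum was 860 FPKM in the WT and 627 FPKM in PU.1-/-, or 72.8% of the WT value. The less abundant members followed the same direction: Krt28 stood at 55.9 and 44.8 FPKM, Krt72 at 18.98 and 12.3 FPKM, and Krt26 at 10.1 and 7.85 FPKM. The 7 log2 ratios ranged from -0.63 to -0.32 and each counting interval lay below 1, although Krt72 alone was 1.5-fold lower and none was 2-fold lower. Krt74 had 3 reads in the WT and 4 in the PU.1-/- library. The chain types went together, with a type I to type II ratio of 1.57 in the WT and 1.67 in the PU.1-/- library, whereas the ratio of inner root sheath to basal keratins was 0.146 in the WT and 0.0969 in the PU.1-/- library. Krt75, the keratin of the companion layer between the inner and outer sheaths, stood at 37.9 and 26.5 FPKM (log2 ratio -0.51, -0.62 to -0.41).

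The hair shaft keratins were less abundant and lower by a similar amount. Krt35, a keratin of the shaft matrix and cuticle, was the most abundant, at 53.3 FPKM in the WT and 44.8 FPKM in PU.1-/- (log2 ratio -0.25, -0.37 to -0.13). Krt36 showed the largest difference of any keratin of at least 1 FPKM in the lower direction, at 4.81 and 2.11 FPKM, a ratio of 0.440 (0.305 to 0.626) on about 97 and 49 reads. Of the 14 shaft keratins of at least 1 FPKM, 13 were lower (background 50.7%), 6 of them 1.5-fold (background 8.17%). The exception was Krt82, a cuticle keratin, at 4.51 and 4.73 FPKM, with an interval that included 1. The sum was 148 FPKM in the WT and 111 FPKM in PU.1-/-, a log2 ratio of -0.42 (-0.50 to -0.35).

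Krt32, a cuticle keratin, stood at 17.1 FPKM in the WT and 11.97 FPKM in PU.1-/-, and Krt85, a type II keratin of the early shaft, at 13.1 and 8.42 FPKM. Of the cortex keratins, Krt31 stood at 7.42 and 5.04 FPKM, Krt33a at 9.87 and 6.11 FPKM, Krt33b at 5.73 and 3.48 FPKM, and Krt34 at 9.46 and 6.30 FPKM. All 6 of these were lower by 1.42-fold or more. On the type II side, Krt81 stood at 5.54 and 3.83 FPKM, Krt83 at 8.30 and 5.90 FPKM, and Krt86 at 5.97 and 5.41 FPKM, and Krt86 had an interval that included 1. These names are partly interchangeable at the level of reads, since Krt81 shares 35.5% and Krt86 33.5% of its stretches with other transcripts and Krt34 shares 24.7%. Krt84 stood at 1.47 and 1.17 FPKM, Krt39 at 1.16 and 0.710 FPKM, and Krt40 at 0.780 and 0.679 FPKM, all with intervals that included 1. Of the 22 hair follicle keratins of at least 1 FPKM, 14 share under 10% of their stretches, and 13 of those 14 were lower, with a median log2 ratio of -0.44.

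The remaining keratins were near the limit of detection. Krt13, a keratin of the mouth and oesophagus, had 6 reads in the WT and 3 in the PU.1-/- library, Krt12 of the cornea 5 and 3, and Krt222 11 and 6. The 2-fold lower calls of Krt13 and Krt222 therefore had intervals that included 1. Krt4 was at 0.150 FPKM in the WT and listed at 0 in the PU.1-/- library, and Krt76, a keratin of the palate, was listed at 0 in both. Krt42 had 12 and 13 reads.

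Along the chromosomes, runs of neighbours in 1 direction stood beside neighbours that differed. Type I keratins apart from Krt18 lie in a cluster on chromosome 11, where 27 of the 52 genes are placed, and the type II keratins and Krt18 lie on chromosome 15, where 24 are placed. On chromosome 11 the 9 shaft genes from Krt39 to Krt36 follow each other in the order of keratins, in a pair (Krt39 and Krt40) and, 467979 bases on, a run of 7 from Krt33a to Krt36. All 9 had ratios below 1, and so did the 4 inner root sheath genes from Krt25 to Krt28. Krt10, the next gene after Krt28, and Krt15 beyond Krt36 had ratios above 1, and Krt17 (log2 ratio -0.11) lies beside Krt16 (0.27). On chromosome 15, Krt5 had a ratio just above 1 and its neighbour Krt71 one of 0.679. The runs were broken there by Krt82 (0.07) among the shaft genes and by Krt74 (0.22, on 3 and 4 reads) between Krt71 and Krt72. Epidermal neighbours differed too, Krt77 (-0.87) from Krt1 (0.40) and Krt79 (-0.07) from Krt78 (0.52).

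**Figure D3:**
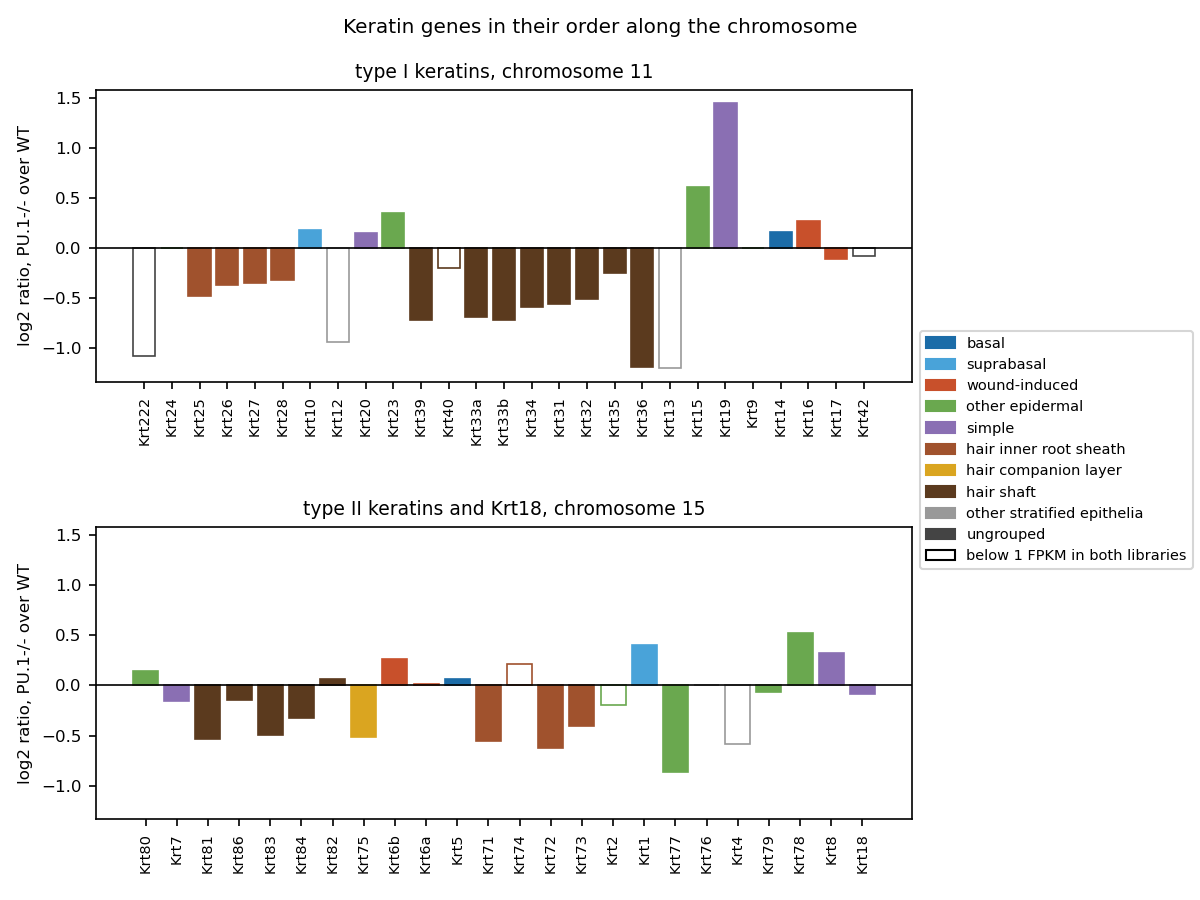
Log2 ratio, PU.1-/- over WT, of the keratins in their order along chromosome 11 (27 genes) and chromosome 15 (24 genes), coloured by group, with open bars for genes below 1 FPKM in both libraries. Most brown bars, the inner root sheath and shaft genes, lie below 0, with Krt82 and Krt74 above it, and equal spacing of the bars does not show distance.

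Genes that work with the keratins were set beside them from fixed lists. Of 10 regulators of hair follicle keratins, 9 had a ratio below 1 (background 50.7%) and none was 2-fold lower, with a median log2 ratio of -0.23. The counting interval lay below 1 in 5 of the 10 and above 1 in 1. The most abundant of them were Dlx3, at 35.4 FPKM in the WT and 27.1 FPKM in PU.1-/-, and Cux1, at 28.3 and 24.7 FPKM. Foxn1, the factor absent in nude mice, which was chosen after its value was seen, had the lowest ratio of this list, at 6.09 and 4.37 FPKM. Lef1 was the exception, at 6.99 and 8.27 FPKM, and is named for that after its value was seen. Of 16 regulators of epidermal differentiation, 6 had a ratio above 1 and 10 below, with a median log2 ratio of -0.09, and Klf4 at 215 and 172 FPKM and Cebpb at 122 and 124 FPKM were the most abundant.

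Transcripts of the proteins that anchor keratins differed by less than 2-fold. Among 13 keratin linkers 9 had a ratio above 1, 6 of them with intervals above 1, 2 had intervals below 1, and the median log2 ratio was 0.08. Pkp1 stood at 260 FPKM in the WT and 274 FPKM in PU.1-/-, and Dsp, which ties keratin filaments to desmosomes, at 248 and 264 FPKM. The ends of that list, chosen after their values were seen, were Plec, the linker plectin, at 31.9 and 41.9 FPKM (log2 ratio 0.39) and Tchh, trichohyalin of the inner root sheath, at 95.3 and 74.4 FPKM (-0.36). Among 9 desmosomal cadherins 6 had a ratio above 1 and 3 below. Chosen in the same way, their ends were Dsg2 at 4.18 and 5.14 FPKM (log2 ratio 0.30) and Dsg4, the desmoglein of the hair shaft, at 3.30 and 2.45 FPKM (-0.43). Dsc1, at 110 and 98.1 FPKM, and Dsc3, at 109 and 113 FPKM, were the most abundant cadherins. The Krtap genes, which encode the matrix between shaft keratin filaments, were lower too. Of 49 detected, 17 were 2-fold lower and 5 were 2-fold higher, where 1057 and 565 of the 16298 detected genes were. The counting interval lay below 1 in 29 Krtap genes and above 1 in 0, so the 5 higher calls were within counting error. The sum of the Krtap genes was 555 FPKM in the WT and 292 FPKM in PU.1-/-, a log2 ratio of -0.93 (-1.002 to -0.85).

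**Figure D4:**
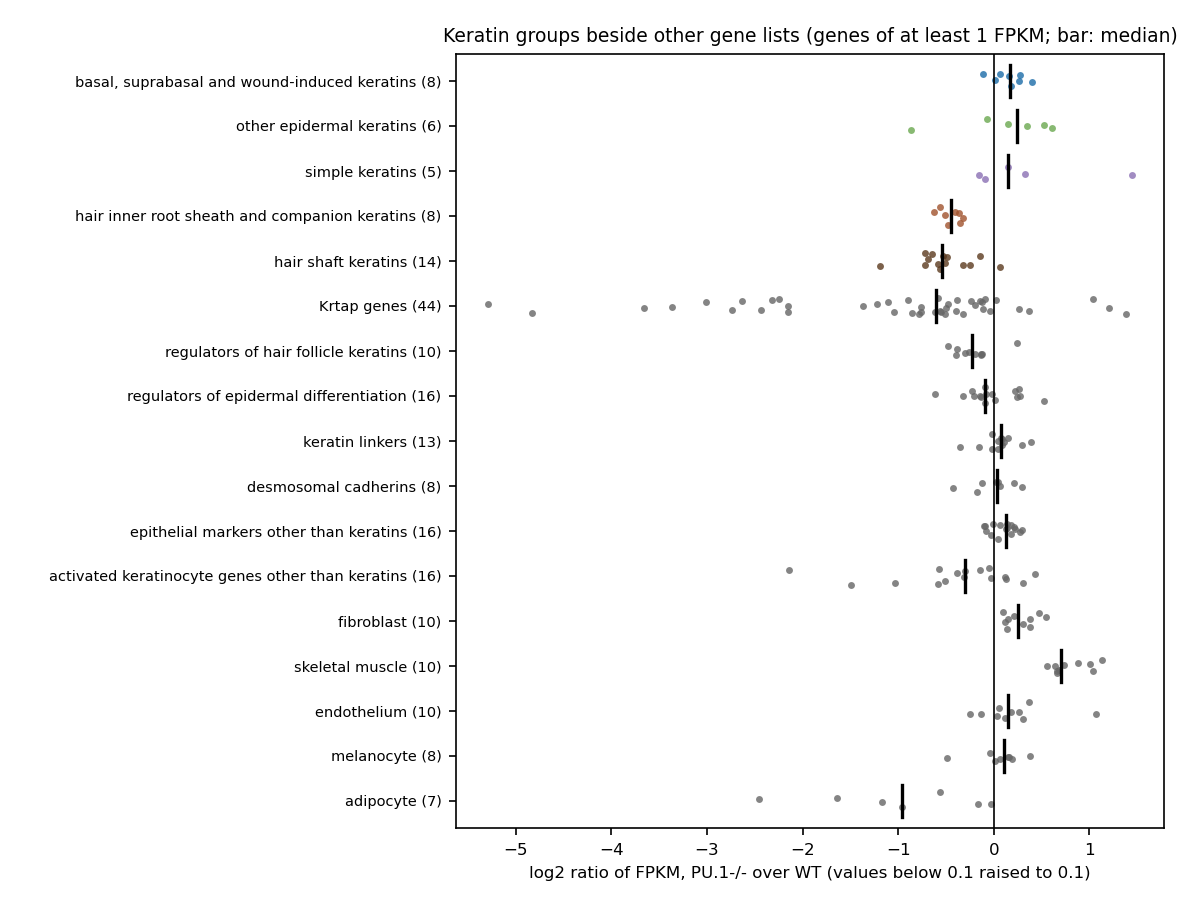
Log2 ratio, PU.1-/- over WT, of each gene of at least 1 FPKM in the keratin groups and in other gene lists, 1 point per gene, with a black bar for the median and the number of genes in brackets. The hair keratins, the Krtap genes and the regulators of hair keratins have medians below 0, whereas the epithelial markers and the epidermal keratins have medians above 0; the spread of the points is between genes, not between animals.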

How the data were processed

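The authors made stranded mRNA libraries, sequenced single-end reads of 75 bases, mapped them to mouse mm10 and deposited FPKM values per gene, made with Cuffnorm. The submitters' processing notes name TopHat2 2.1.1, Bowtie2 2.2.8, SAMtools 0.1.18 and Cuffdiff 2.2.1. The annotation used for counting, and how reads that fit several genes were divided, were not stated in the labels or the methods.

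All values were taken from the FPKM as deposited, whose sums were 709528 in the WT and 687304 in the PU.1-/- library. Read numbers were estimated as FPKM times the transcript length less 200 nt (the longest GENCODE transcript linked to RefSeq) over the value of 1 read. The lowest steps of the FPKM values gave that value, with a WT to PU.1-/- ratio of 1.15. For 14 keratins of few reads, a pair of whole numbers gave the FPKM ratio within a relative difference of 1e-05, and of the pairs with that ratio the one nearest to the estimate was used. Transcripts of 300 nt or more were matched to 21971 symbols (90.2%) and to 51 keratins, and not to Krt85. Intervals depend on that length. The calculation was run on simulated libraries built with the same lengths and value of 1 read. Such a run checks the arithmetic only, not the lengths, the shared reads or the scaling. Positions and promoters are those of RefSeq on GRCm38.p6, the assembly of mm10. Python 3.11.15, pandas 2.3.3 and scipy 1.17.1 were used.

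The members and lists were chosen with earlier results of these data known. The text names every keratin, Spi1 and 5 sex-linked genes. Of another list a gene could be named if it was among the 2 most abundant or 2-fold different at 1 FPKM or more; lists of markers of other cell types, epithelial markers and Krtap genes are given by counts and sums, and any gene named beyond this is said to be chosen after its value was seen. Krt83 may be uncertain, since RefSeq gives that symbol also as an older name of a neighbouring gene. Alternatives were another floor, a pseudocount, other scalings, a minimum of 1 FPKM and other fold thresholds.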

Additional observations from a re-analysis of the deposited data

How the results depend on the processing

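No paired analysis was possible because each genotype has 1 library. The 2-fold calls rested on few reads: the count of higher keratins was 1 as reported, 0 with values below 1 FPKM raised to 1, with 1 FPKM added or with a 3-fold threshold, and 2 with a 1.5-fold threshold. The count of lower keratins was 3 as reported, 1 with values below 1 FPKM raised to 1 or with genes of at least 1 FPKM, 0 with 1 FPKM added or a 3-fold threshold, and 11 with a 1.5-fold threshold. The median log2 ratio over detected keratins was -0.25 as reported, -0.087 with values below 1 FPKM raised to 1, -0.13 with 1 FPKM added -0.21 with the same FPKM sum in both libraries and -0.38 relative to the epithelial markers. That scaling shifts every log2 ratio by -0.13, and the summed log2 ratios then were 0.0055 for the basal, 0.14 for the suprabasal, 0.038 for the wound-induced, -0.59 for the inner root sheath and -0.56 for the hair shaft keratins. Relative to the ratio of sums of the same markers, chosen after seeing the data, they were 0.13 for the basal and 0.16 for the wound-induced keratins. With the same FPKM sum they were 0.18, 0.32, 0.22 and -0.41 for the basal, suprabasal, wound-induced and inner root sheath keratins. The median over the members in place of the sum gave 0.11, 0.29, 0.14, -0.39 and -0.53 in the same order. After seeing the data, the most abundant member of each group was also left out, which gave 0.066 without Krt14, 0.40 without Krt10, 0.10 without Krt16 and -0.53 without Krt35. With members that share under 10% of their stretches of 75 bases, also chosen after seeing the data, the wound-induced group is Krt17 alone and its log2 ratio of -0.11 is the reverse of the sum, while the hair shaft was at -0.33. The number of hair follicle keratins below 1 was 21 or 22 of 22 under the 6 floors and scalings. Of the alternatives for single keratins, 267 values stayed within the counting interval and 29 moved out of it. A reversal could be counted only for keratins with a 2-fold call, and scalings shifted log2 ratios by 0.13 at most. The count of 0 reversals is therefore uninformative. Changes of direction in other keratins were not counted as reversals. Calls that were lost, as for Krt13 and Krt222 with values below 1 FPKM raised to 1, counted as within the interval.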

Other observations

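Genes other than keratins that activated keratinocytes make at a wound were mostly lower. Of 16 such genes, 12 had a ratio below 1, where 50.7% of all genes of at least 1 FPKM did. Of the 16, 3 were 2-fold lower, as were 1057 of the 16298 detected genes. They were Epgn, a growth factor of the EGF family, at 42.8 FPKM in the WT and 20.9 FPKM in PU.1-/-, Plaur at 119 and 42.1 FPKM, and Il1rn at 37.8 and 8.54 FPKM. Leukocytes also express members of this list, among them Plaur and Il1rn, and the part of leukocytes in its values was not tested. The most abundant of the list were Stfa1, at 4794 and 3370.3 FPKM, and Sprr1a, a cornified envelope protein, at 1724 and 1324 FPKM. The median log2 ratio of the list was -0.30, beside 0.14 for the 4 wound-induced keratins. No test of the difference between these lists was possible with 1 library per genotype.

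Of 16 intermediate filament genes other than keratins, 10 had a ratio above 1 and 6 below, with a median log2 ratio of 0.28. The 1 that was 2-fold higher, Nefm, was at 0.228 FPKM or less in both libraries. Of the most abundant, Vim, of mesenchymal cells and leukocytes, stood at 971 FPKM in the WT and 744 FPKM in PU.1-/-, and Des, of muscle, stood at 396 and 699 FPKM. Skeletal muscle markers were higher in the same library, in 10 of 10, and the part of the muscle content in the Des values was not tested.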
